A study of Mus musculus with 32 samples.

Results

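Megakaryocytes are the large marrow cells that shed platelets, and 9 genes whose products serve these cells were followed in mouse blood progenitors that lacked or kept an enhancer of Gata2. The genes were Itga2b, Gp1bb, Gp9, Treml1, Vwf, Pf4, Ppbp, F2rl2 and Plek, taken by symbol from 55487 rows of gene-level expected counts. Of the 9 genes, 8 had enough counts to be tested and Ppbp did not. The cells were fetal liver hematopoietic progenitors immortalised with ER-HOXB8, an estrogen-dependent form of the HOXB8 homeobox protein that keeps such cells dividing. The line hi-77-/- had the genotype Gata2 -77-/-, that is, it lacked the upstream enhancer on both alleles, and is called mutant here; the line hi-77+/+ kept the enhancer and is called wild-type. All cells, in every group, grew with estradiol, stem cell factor conditioned medium and the selection drug G418. Each line was treated for 4 h with interferon gamma (IFNg) at 1 ng/ml, with Pam3CSK4 at 100 ng/ml, with both agents, or with vehicle. Pam3CSK4, made to imitate bacterial lipoprotein, is sensed by TLR2 together with TLR1. Total RNA was sequenced from 4 libraries in each of the 8 groups. Each genotype was represented by a single line and whether the 4 libraries within a group stem from separate cultures is not stated, so p-values measure the spread between these libraries only.

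Platelets stop bleeding in steps that the 9 genes cover. Von Willebrand factor (Vwf) tethers platelets through the glycoprotein Ib-IX-V complex, of which Gp1bb and Gp9 encode subunits, and the integrin of the Itga2b and Itgb3 products then binds fibrinogen. Thrombin acts through protease-activated receptors such as the F2rl2 product, the chemokines encoded by Pf4 and Ppbp are released from alpha granules, Treml1 encodes a receptor of the granule membrane, and pleckstrin (Plek) is a substrate of protein kinase C in platelets and in white cells. Itga2b is also used as a marker of early blood progenitors, and GATA factors together with ETS factors are known regulators of megakaryocyte genes.

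The 250 bases before the transcription start were read from RefSeq (GRCm38.p6) for 8 of the 9 genes, and are shown because GATA and ETS factors act on promoters of this class of gene. For GATA factors the words searched on both strands were AGATAA, with its variant AGATAG, then TGATAA, with its variant TGATAG. For ETS factors they were AGGAAG, with its variant CGGAAG. Of these, the GATA words were present in 2 of the 8 windows, the ETS words in 5 and both kinds in 2; among 32851 promoters of the same length 26.5% held a GATA word, 39.2% an ETS word and 9.2% both. The windows of Itga2b at chr11:102469884-102470133 (minus strand), Gp9 at chr6:87777820-87778069 (plus strand) and Pf4 at chr5:90772185-90772434 (plus strand) are given whole, with ETS words in capitals. For Gp1bb and F2rl2 only the 30 bases around the GATA word are given, at chr16:18622408-18622437 (minus strand) and chr13:95696813-95696842 (plus strand); in Gp1bb the GATA word lies on the opposite strand, and in F2rl2 the capitals hold an ETS word directly followed by the GATA word.
Itga2b: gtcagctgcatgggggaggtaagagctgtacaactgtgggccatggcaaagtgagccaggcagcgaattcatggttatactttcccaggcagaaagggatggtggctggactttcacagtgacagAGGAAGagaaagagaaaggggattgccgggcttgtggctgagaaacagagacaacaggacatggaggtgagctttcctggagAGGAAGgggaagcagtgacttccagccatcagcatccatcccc
Gp9: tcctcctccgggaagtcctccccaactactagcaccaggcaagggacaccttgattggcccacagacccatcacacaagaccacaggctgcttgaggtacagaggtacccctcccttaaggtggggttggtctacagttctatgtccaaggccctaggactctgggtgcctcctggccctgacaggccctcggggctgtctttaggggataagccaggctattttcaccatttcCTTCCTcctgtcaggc
Pf4: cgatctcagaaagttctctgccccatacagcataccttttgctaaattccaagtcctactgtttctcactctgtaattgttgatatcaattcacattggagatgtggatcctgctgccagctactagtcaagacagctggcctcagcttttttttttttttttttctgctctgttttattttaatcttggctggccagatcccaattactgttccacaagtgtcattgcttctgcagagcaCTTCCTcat
Gp1bb: gcacctccccgcCTATCAtaagggaacaag
F2rl2: ggggtgAGGAAGAGATAAaagggatatggc
In Itga2b the ETS words stood 125 to 120 and 43 to 38 bases before the start. The single ETS words of Gp9 and Pf4, on the opposite strand, stood 16 to 11 and 9 to 4 bases before it. In Gp1bb the GATA word lay 22 to 17 bases before the start and in F2rl2 95 to 90 bases before it. The windows of Treml1, Plek and Ppbp held none of these words. RefSeq starts differ from the GENCODE gene ends for Itga2b, Gp9, F2rl2 and Plek, and a match describes the letters only.

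Libraries held 44.18 to 71.42 M expected counts and 17396 to 20958 detected genes. Gata2 (ENSMUSG00000015053.14, chr6:88193891-88207032), the gene whose enhancer was deleted, read 6.62, 8.03, 7.37 and 8.06 CPM (counts per M of the scaled library total) in the 4 mutant vehicle libraries, against 35.1, 40.4, 54.7 and 43.4 CPM in the 4 wild-type vehicle libraries. Treated groups averaged 6.58 to 7.57 CPM in mutant and 38.6 to 44.4 CPM in wild-type cells. The libraries thus matched their genotype labels, while the treatment labels are not checked by Gata2. The share of counts from mitochondrial and small structural RNA averaged 21.08 ± 3.89% with IFNg, 27.33 ± 2.12% with Pam3CSK4, 22.96 ± 4.77% with both and 25.76 ± 1.78% with vehicle in mutant cells (SD, n = 4). In wild-type cells it averaged 15.9 ± 1.87% with IFNg, 14.84 ± 1.47% with Pam3CSK4, 13.62 ± 0.61% with both and 23.96 ± 4.17% with vehicle. It therefore moved with treatment in wild-type cells, where all vehicle libraries (19.38 to 28.78%) lay above all treated libraries (12.76 to 17.75%). The lines did not overlap with Pam3CSK4 (25.19 to 30.26% in mutant, 13.59 to 16.89% in wild-type cells) or with both agents (18.82 to 27.83% and 12.76 to 14.17%). Its part in the results below was examined only as a covariate. In these comparisons a call lost or gained with the covariate cannot tell the share from treatment or line. The name of the gene set does not describe the cells. Among genes of mature megakaryocytes and platelets, Gp6, Cd36, Selp, Mpig6b, Clec1b, Gng11, Cavin2 and Mmrn1 reached group means of at most 0.0375 CPM. Tubb1, the platelet beta-tubulin, reached at most 0.0886 CPM. These were picked for their low levels, and other genes of platelet function were abundant. Itgb3 reached a group mean of 73.0 CPM, Cd9 128.3 CPM and Itga6 139.1 CPM. By their labels the cells were progenitors, not megakaryocytes, and these levels were not a test of cell type.

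With vehicle, all 8 tested genes differed between the lines. Itga2b, Gp1bb, Treml1 and Gp9 were lower in mutant cells, and Vwf, Pf4, F2rl2 and Plek were higher, each at an adjusted p under 0.05 in edgeR's quasi-likelihood test over 14869 genes and with no overlap between the 4 mutant and the 4 wild-type libraries. Of all genes tested 53.7% were called in this comparison, 24.4% higher and 29.3% lower, so the count of 8 is to be read against a background in which a call was common. The median absolute log2 fold change was 2.16 over the 8 genes and 0.24 over all genes. Under IFNg, Pam3CSK4 and both agents 7 of the 8 genes were called, where 53.1, 65.6 and 60.2% of all genes were. In each of these the same 4 genes were higher, Itga2b, Gp1bb and Treml1 were lower, and Gp9 did not pass. The median absolute log2 fold changes of the 8 genes were 2.40 with IFNg, 1.95 with Pam3CSK4 and 2.27 with both, against 0.23, 0.33 and 0.28 over all genes. These medians are a description only, as the genes were chosen with results of these data known. Gp1bb, Treml1 and Pf4 also had enough counts to be tested only through the line where they were higher, which favours large differences. In bulk RNA of this kind fewer cells of a type and less RNA per cell cannot be told apart.

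**Figure D1:**
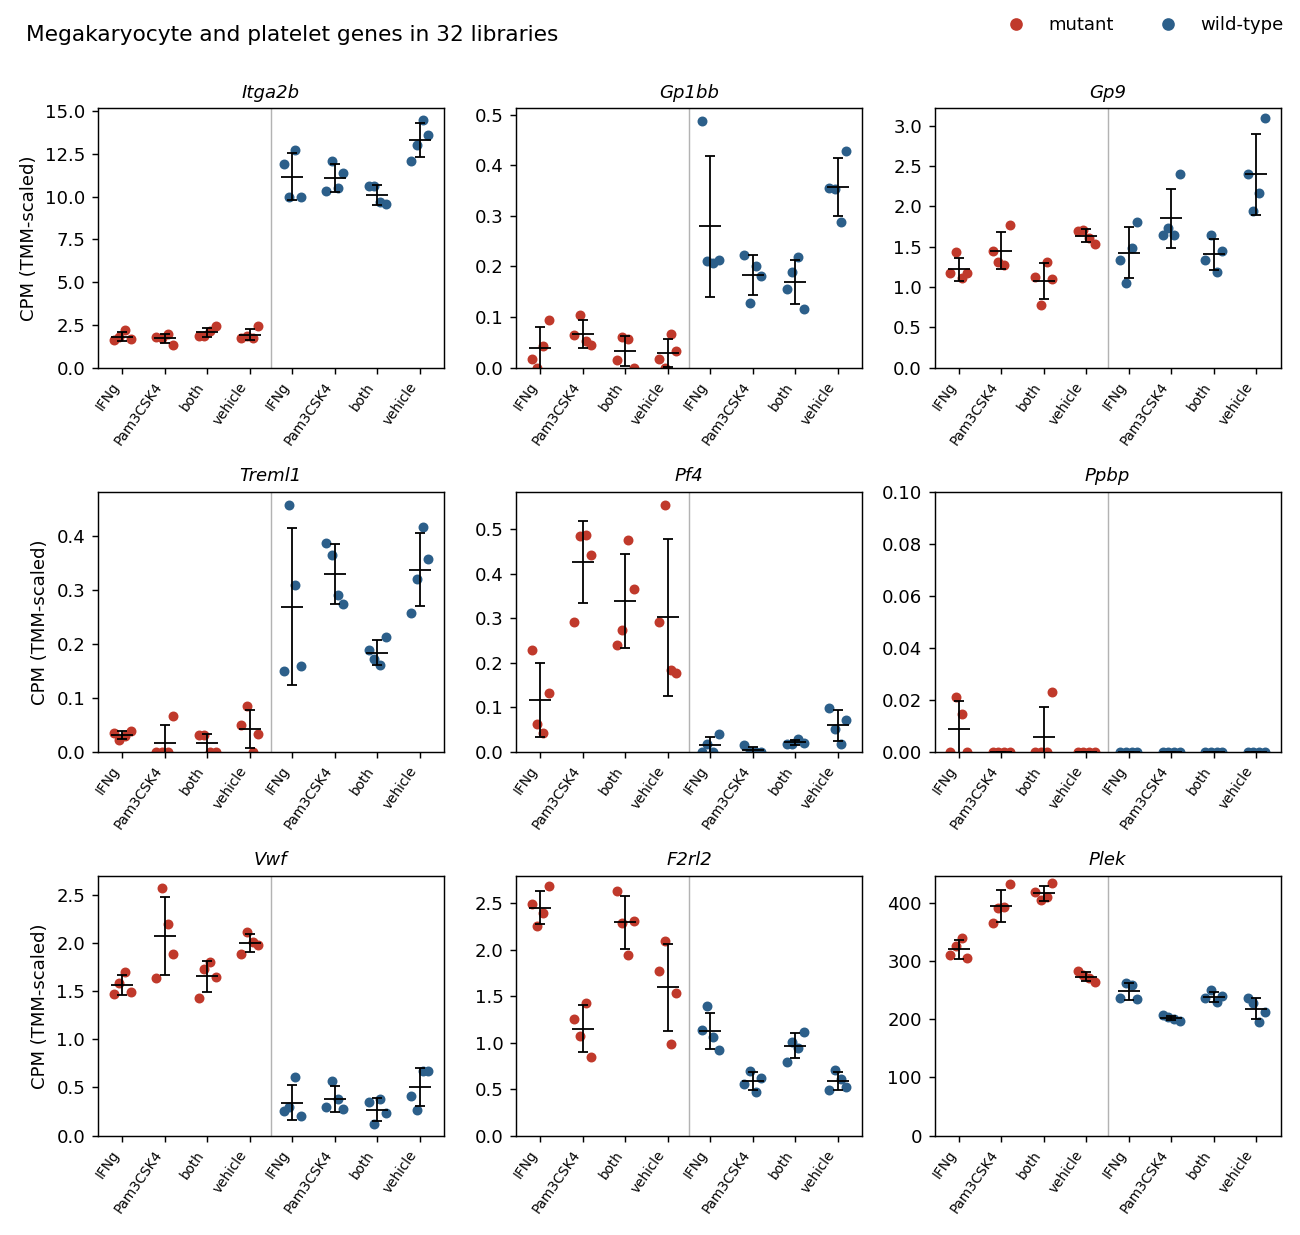
CPM of each of the 9 genes in every library (points), with the group mean and SD (bars, n = 4), for mutant (red) and wild-type (blue) cells under IFNg, Pam3CSK4, both agents and vehicle. Each panel has its own linear axis. Itga2b, Gp1bb and Treml1 lie lower in all mutant groups, Vwf, Pf4, F2rl2 and Plek lie higher, and Ppbp is at 0 in most libraries.

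**Figure D2:**
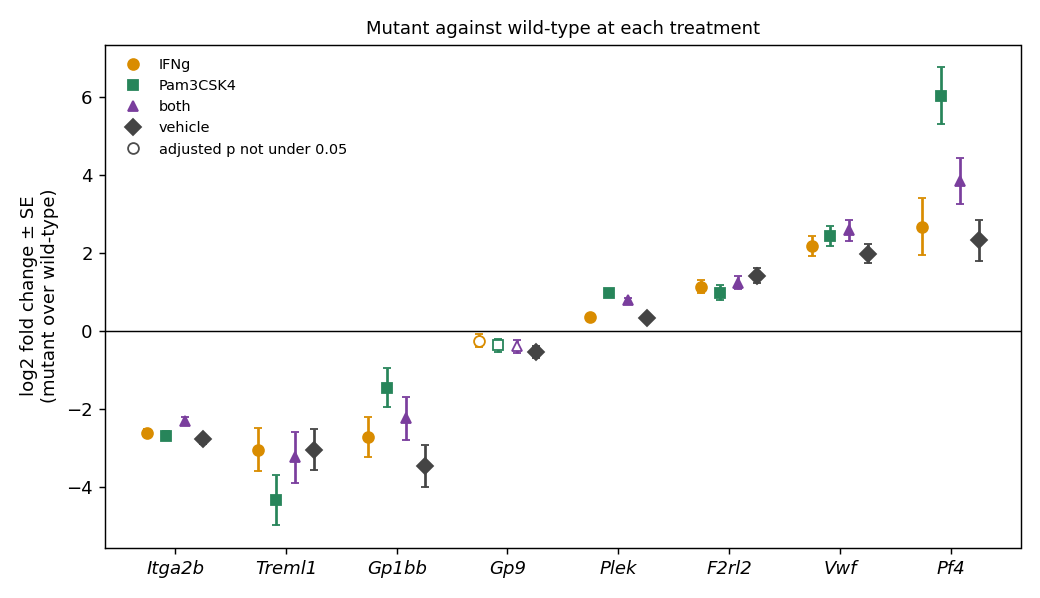
Log2 fold change of mutant over wild-type cells ± SE for the 8 tested genes under each treatment; filled points passed an edgeR adjusted p of 0.05 and open points did not. The estimates keep their side of 0 in all 4 treatments, from -3.46 for Gp1bb with vehicle to 3.85 for Pf4 with both agents among groups with more than 3 summed counts.

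Itga2b (ENSMUSG00000034664.13, chr11:102453297-102470122, minus strand) encodes integrin alpha IIb. With vehicle it read 1.75, 1.84, 1.73 and 2.41 CPM in mutant libraries, against 12.1, 13, 14.5 and 13.6 CPM in wild-type libraries. The highest mutant library was far under the lowest wild-type one. Itga2b was 6.87-fold lower in mutant cells (log2 fold change -2.78 ± 0.11, edgeR adjusted p = 2.68e-21). Under IFNg the difference was -2.61 ± 0.11, under Pam3CSK4 -2.68 ± 0.12 and under both agents -2.30 ± 0.11. Its partner did the opposite: Itgb3, which encodes the beta 3 chain, averaged 63.9 ± 2.71 CPM in mutant and 26.8 ± 1.02 CPM in wild-type vehicle libraries (1.25 ± 0.05 on the log2 scale). The transcripts of the chains that form the fibrinogen receptor thus differed in opposite directions.

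Treatment moved Itga2b little. In wild-type cells exposed to both agents it read 10.6, 10.6, 9.67 and 9.54 CPM, all under the lowest vehicle library, a log2 fold change of -0.40 ± 0.10 (edgeR adjusted p = 0.00123). With IFNg it averaged 11.2 ± 1.32 CPM in wild-type cells (-0.26 ± 0.10, adjusted p = 0.0408) and with Pam3CSK4 11.1 ± 0.839 CPM (-0.27 ± 0.10, adjusted p = 0.0497), with libraries that overlapped vehicle. Both of these calls ended without any one of several libraries, with adjusted p of 0.0531 to 0.142 for IFNg and 0.0619 to 0.141 for Pam3CSK4, and with the structural RNA share as covariate none of the 3 passed (adjusted p = 0.519 for IFNg, 0.853 for Pam3CSK4 and 0.244 for both). In mutant cells means were 1.82 ± 0.272 CPM with IFNg, 1.72 ± 0.268 CPM with Pam3CSK4 and 2.07 ± 0.271 CPM with both, against 1.93 ± 0.321 CPM with vehicle, and no comparison passed. The response to both agents differed between the lines by 0.48 ± 0.16 on the log2 scale (adjusted p = 0.0344), a call that ended with the structural RNA share as covariate (0.37, adjusted p = 0.215) and with only the libraries compared (0.44, adjusted p = 0.0583). It also ended when 1 library was left out, which held for library 3 or 4 of mutant cells with both agents and 1, 2 or 3 with vehicle, and for library 3 or 4 of wild-type cells with both agents or with vehicle (adjusted p = 0.0537 to 0.102).

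Gp1bb (ENSMUSG00000050761.4, chr16:18620317-18622403, minus strand) encodes the beta chain of glycoprotein Ib. It was near the detection limit in mutant cells, with 0.0162, 0, 0.0666 and 0.0321 CPM with vehicle, against 0.355, 0.354, 0.288 and 0.429 CPM in wild-type vehicle libraries. The summed expected counts were 7.46 in mutant and 75.4 in wild-type vehicle libraries, and the groups did not overlap. Gp1bb was 11.0-fold lower in mutant cells (log2 fold change -3.46 ± 0.53, edgeR adjusted p = 7.89e-07). The difference was -2.71 ± 0.51 with IFNg, -1.45 ± 0.50 with Pam3CSK4 (adjusted p = 0.0121, or 0.302 with the structural RNA share as covariate) and -2.24 ± 0.56 with both. Wild-type libraries exposed to both agents, at 0.155, 0.189, 0.218 and 0.116 CPM, lay under all wild-type vehicle libraries (-1.03 ± 0.39, adjusted p = 0.03). That call was lost when library 1 or 4 of the wild-type cells with both agents, or library 1, 2 or 4 with vehicle, was left out (adjusted p = 0.0502 to 0.0884), without the filter on low counts (0.0726), and with the covariate (0.143). The annotated genes Sept5 and Gm49601 overlap Gp1bb on its strand, and RSEM divides shared reads by a model; their group means were at most 0.104 and 0.0439 CPM.

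Gp9 (ENSMUSG00000030054.4, chr6:87778072-87779768, plus strand) encodes glycoprotein IX. Its mutant vehicle libraries read 1.70, 1.71, 1.61 and 1.53 CPM, against 2.40, 1.94, 2.16 and 3.10 CPM in wild-type vehicle libraries. Every mutant library was under every wild-type one, by a log2 fold change of -0.54 ± 0.16 (edgeR adjusted p = 0.00482). This was the smallest genotype difference among the 4 lower genes, and it was not called without wild-type vehicle libraries 1 and 4, which hold the 2 highest values (-0.33, adjusted p = 0.142). The estimates were -0.24 ± 0.17 with IFNg (adjusted p = 0.252), -0.36 ± 0.17 with Pam3CSK4 (0.0587) and -0.39 ± 0.17 with both (0.054). The values for Pam3CSK4 and for both agents were near the threshold: they were called with the structural RNA share as covariate (-0.68, adjusted p = 0.0301, and -0.63, adjusted p = 0.0212) and without any one of 3 and 2 single libraries (adjusted p = 0.0253 to 0.0459 and 0.0244 to 0.0328), and for both agents without the filter on low counts (0.0485).

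Gp9 fell with both agents in both lines, and with IFNg in wild-type cells. Exposure to both agents brought it to 1.08 ± 0.224 CPM in mutant cells, against 1.64 ± 0.0868 CPM with vehicle (-0.61 ± 0.17, edgeR adjusted p = 0.00396). In wild-type cells it fell to 1.41 ± 0.191 CPM with both agents, against 2.40 ± 0.502 CPM with vehicle (-0.76 ± 0.16, adjusted p = 0.000257). IFNg alone gave 1.34, 1.05, 1.49 and 1.81 CPM in wild-type libraries, all under the vehicle libraries (-0.73 ± 0.16, adjusted p = 0.000573), and 1.18, 1.43, 1.11 and 1.17 CPM in mutant libraries (-0.43 ± 0.17, adjusted p = 0.0508), which was called with RLE size factors (0.0423), with only the libraries compared (0.0177), without mutant IFNg library 2 (0.0358) and in DESeq2 (0.0375). Pam3CSK4 alone did not pass in mutant cells (-0.18 ± 0.17, adjusted p = 0.5) or in wild-type cells (-0.36 ± 0.16, adjusted p = 0.101), where it was called without Pam3CSK4 library 4 (0.0336) or vehicle library 2 (0.0482). The response did not pass a test of difference between the lines (0.30 ± 0.24 for IFNg, adjusted p = 0.607; 0.15 ± 0.24 for both, 0.732). With the structural RNA share as covariate the wild-type estimates were -0.51 (adjusted p = 0.083) with IFNg and -0.49 (0.126) with both.

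The other chains of the complex, named after their values were seen, divided. Gp1ba, which encodes the chain that binds von Willebrand factor, averaged 0.034 ± 0.0178 CPM in mutant and 0.512 ± 0.256 CPM in wild-type vehicle libraries (-3.78 ± 0.50 on the log2 scale, edgeR adjusted p = 6.72e-08), close in size to Gp1bb. Gp5 averaged 0.109 ± 0.084 CPM in mutant and 0.131 ± 0.0374 CPM in wild-type libraries (-0.22 ± 0.48, adjusted p = 0.727). Of the 4 chains Gp9 alone stood above 1 CPM in mutant cells.

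Gp9 lies on the chromosome that carries Gata2, with its start at -415.8 kb from the Gata2 start (negative is upstream). Within 500 kb of Gata2 40 genes are annotated, of which 24 were tested. With vehicle 11 were lower in mutant cells, Gata2 itself included, 1 was higher and 12 did not pass, where over all genes 53.7% were called and 29.3% were called lower; the count of 1 higher ran from 0 to 2 over the alternatives. Besides Gata2 and Gp9 the lower genes were Isy1, Copg1, Hmces, H1fx, Rab7, Rpn1, Eefsec, Ruvbl1 and Sec61a1, at log2 fold changes of -0.20 to -1.99. H1fx, a linker histone gene, had the greatest of these differences (0.222 CPM in mutant against 0.889 CPM in wild-type libraries). Hmces, whose product shields abasic sites in DNA, was at -0.69 ± 0.05 and Rpn1, a subunit of the oligosaccharyltransferase, at -0.49 ± 0.03. The median over the 24 tested genes was -0.21, and -0.01 over all genes.

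**Figure D3:**
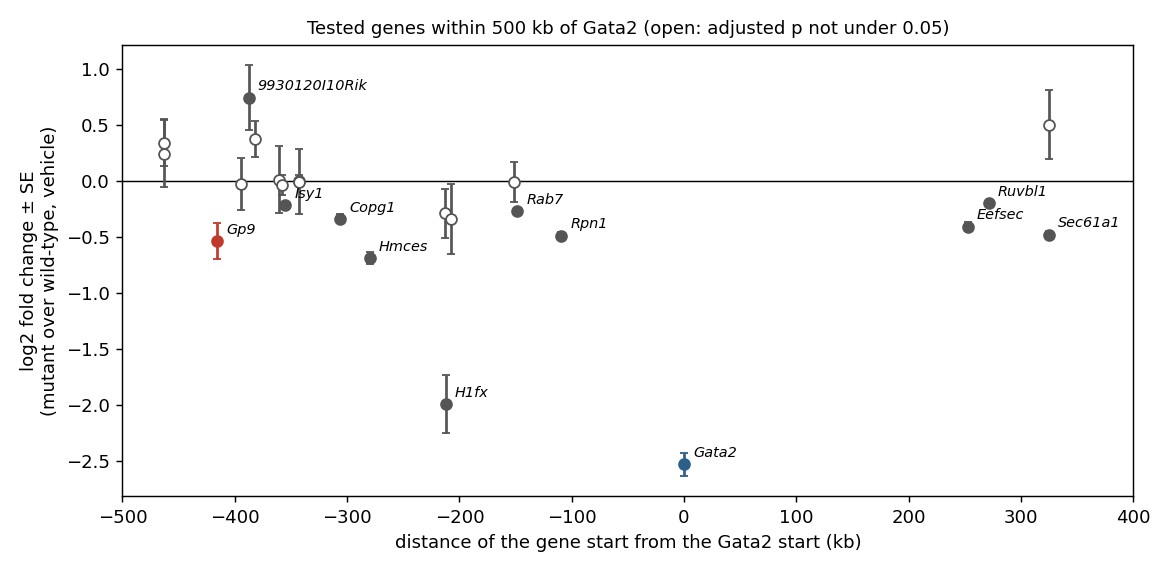
Log2 fold change ± SE of mutant over wild-type vehicle libraries for the 24 tested genes within 500 kb of Gata2, against the distance of each gene's start from the Gata2 start in kb (negative is upstream). Gata2 is at -2.53 and Gp9, at -415.8 kb, at -0.54; 11 genes are called lower and 1 higher.

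Treml1 (ENSMUSG00000023993.7, chr17:48359916-48367176, plus strand) encodes TLT-1, a receptor stored in platelet alpha granules. With vehicle it read 0.0487, 0.0854, 0 and 0.0321 CPM in mutant libraries, against 0.256, 0.32, 0.417 and 0.357 CPM in wild-type libraries, or 9 summed counts in mutant against 73 in wild-type libraries. The groups did not overlap, and Treml1 was 8.23-fold lower in mutant cells (log2 fold change -3.04 ± 0.52, edgeR adjusted p = 5.93e-06). The difference was -3.04 ± 0.56 with IFNg and -3.24 ± 0.66 with both agents. With Pam3CSK4 there were 3 counts in mutant and 77 in wild-type libraries, a ratio of 23.4 lower (95% counting interval 7.71 to 115.9). No treatment comparison passed for Treml1; the nearest was both agents in wild-type cells, where 0.189, 0.171, 0.16 and 0.213 CPM lay under all vehicle libraries (-0.89 ± 0.40, adjusted p = 0.0698). Without mutant Pam3CSK4 library 4, which held all 3 counts of its group, the mutant Pam3CSK4 comparison was called (adjusted p = 0.0271).

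Treml1 belongs to a cluster of related receptor genes, of which Treml2, Trem1 and Trem3 could be tested. All 3 were lower in mutant vehicle libraries but by much less: Trem3, an amplifying receptor of myeloid cells, was at -0.42, Trem1 at -0.26 and Treml2 at 76.8 ± 0.719 CPM in mutant against 83.8 ± 3.24 CPM in wild-type libraries. Treml2 rose with IFNg in both lines, to 115.9 ± 4.6 CPM in mutant and 122.7 ± 3.35 CPM in wild-type cells. Treml1 did not pass with IFNg in mutant (-0.33, adjusted p = 0.79) or wild-type cells (-0.33, adjusted p = 0.53).

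Vwf (ENSMUSG00000001930.17, chr6:125546774-125686679, plus strand) encodes von Willebrand factor, the ligand of the glycoprotein Ib complex, made by megakaryocytes and endothelium. It read 1.88, 2.11, 2.01 and 1.98 CPM in mutant vehicle libraries, against 0.414, 0.27, 0.673 and 0.667 CPM in wild-type vehicle libraries. All mutant libraries were above all wild-type libraries, and the log2 fold change was 1.99 ± 0.25 (edgeR adjusted p = 1.89e-08). It was 2.18 ± 0.26 with IFNg, 2.45 ± 0.26 with Pam3CSK4 and 2.59 ± 0.27 with both. With vehicle, then, the ligand was higher and 3 of the 4 receptor chains, Gp1bb, Gp1ba and Gp9, were lower. In wild-type cells both agents gave 0.269 ± 0.117 CPM (-0.87 ± 0.31, adjusted p = 0.0239), a call lost without wild-type both library 2 (adjusted p = 0.109) or 4 (0.0588), without wild-type vehicle library 3 (0.118) or 4 (0.0838), and with the structural RNA share as covariate (0.361). No treatment passed for Vwf in mutant cells, where means were 1.56 ± 0.101 CPM with IFNg, 2.07 ± 0.403 CPM with Pam3CSK4 and 1.65 ± 0.161 CPM with both, against 2.00 ± 0.0961 CPM with vehicle. With only the libraries compared, IFNg was called there (-0.35, adjusted p = 0.0245; 0.222 over all libraries), and the mutant IFNg and vehicle libraries did not overlap. Among 8 endothelial genes Emcn and Cldn5 were at 0 in mutant vehicle libraries and Cdh5, Emcn and Cldn5 in wild-type vehicle libraries; Kdr and Erg were called higher in mutant cells, and the summed level of the list was 62.0 to 69.7 CPM in mutant and 44.5 to 50.1 CPM in wild-type vehicle libraries, nearly all from Erg (64.2 CPM in mutant and 46.8 CPM in wild-type libraries).

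Pf4 (ENSMUSG00000029373.7, chr5:90772435-90773383, plus strand) encodes platelet factor 4, the CXCL4 chemokine. Mutant vehicle libraries read 0.292, 0.555, 0.183 and 0.177 CPM, against 0.0985, 0.0506, 0.016 and 0.0715 CPM in wild-type vehicle libraries, or 66 summed counts in mutant against 12 in wild-type libraries. Mutant libraries were higher without overlap, by a log2 fold change of 2.33 ± 0.52 (edgeR adjusted p = 0.00023). With IFNg the summed counts were 26 in mutant and 4 in wild-type cells (2.68 ± 0.73, adjusted p = 0.00211), and with both agents 75 in mutant and 5 in wild-type cells (3.85 ± 0.59). With Pam3CSK4 mutant libraries read 0.292, 0.485, 0.488 and 0.443 CPM, while the wild-type libraries held 1 count in all, a ratio of 97.7 (95% counting interval 17.1 to 3901.5).

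The treatment responses of Pf4 rested on few counts. In mutant cells IFNg gave 0.228, 0.063, 0.0428 and 0.132 CPM, with 1 library above the lowest vehicle values (-1.33 ± 0.45, edgeR adjusted p = 0.0196). That call was lost without mutant IFNg library 2 (adjusted p = 0.0654) or 3 (0.0962), without mutant vehicle library 2 (0.151) and with the structural RNA share as covariate (0.143). In wild-type cells Pam3CSK4 left 1 count against 12 with vehicle, a ratio of 13 lower (95% counting interval 1.92 to 555.5; edgeR adjusted p = 0.0284). The Pam3CSK4 response differed between the lines by 3.71 ± 1.12 on the log2 scale (adjusted p = 0.0128). Without wild-type vehicle libraries 1 and 4 the wild-type call and the difference ended (adjusted p = 0.293 and 0.15), as they did with the covariate (0.491 and 0.163). The wild-type call also ended without wild-type Pam3CSK4 library 2, 3 or 4 or vehicle library 1 or 4, left out singly (adjusted p = 0.0635 to 0.0975).

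Ppbp (ENSMUSG00000029372.7, chr5:90768518-90770063, plus strand), the neighbour of Pf4 on chromosome 5, encodes pro-platelet basic protein, one of the most abundant platelet chemokines. It had 2 counts in the mutant IFNg libraries, 1 in the mutant libraries with both agents and 0 in the other 6 groups, where a count of 0 allows up to 0.0121 to 0.0142 CPM (3 counts over the group's libraries, counting error only). The related chemokine genes of the cluster, Cxcl1, Cxcl3, Cxcl5 and Cxcl15, reached at most 0.126 CPM. Cxcl2, a chemokine for neutrophils in the same cluster, was an exception: with Pam3CSK4 it read 3.49, 4.28, 4.05 and 3.90 CPM in mutant and 0.222, 0.128, 0.236 and 0.218 CPM in wild-type libraries (log2 fold change 4.26 ± 0.24, edgeR adjusted p = 2.72e-16), and with vehicle 2 counts in mutant and 0 in wild-type libraries. Cxcl3, which was not tested, averaged 0.107 CPM with Pam3CSK4 and 0.126 CPM with both agents in mutant cells, against 0.00416 CPM with vehicle. Its wild-type group means were at most 0.0043 CPM. High Cxcl2 with Pam3CSK4 was thus not accompanied by detectable Ppbp, which had 0 counts in both lines under that agent.

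F2rl2 (ENSMUSG00000021675.4, chr13:95696853-95702739, plus strand) encodes PAR3, which in mouse platelets assists the cleavage of PAR4 by thrombin. With vehicle it read 1.77, 2.09, 0.982 and 1.53 CPM in mutant libraries, against 0.493, 0.708, 0.609 and 0.524 CPM in wild-type libraries. All mutant libraries were higher (log2 fold change 1.42 ± 0.19, edgeR adjusted p = 9.63e-08). The difference was 1.14 ± 0.17 with IFNg, 0.99 ± 0.20 with Pam3CSK4 and 1.25 ± 0.17 with both.

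F2rl2 rose with IFNg in both lines. IFNg gave 2.49, 2.25, 2.39 and 2.68 CPM in mutant libraries, all above the vehicle libraries (0.63 ± 0.16, edgeR adjusted p = 0.00269). In wild-type libraries it gave 1.13, 1.39, 1.06 and 0.916 CPM, again above all vehicle libraries (0.92 ± 0.20, adjusted p = 0.00043). With both agents F2rl2 averaged 2.29 ± 0.281 CPM in mutant cells (0.54 ± 0.17, adjusted p = 0.0078) and 0.963 ± 0.132 CPM in wild-type cells (0.70 ± 0.20, adjusted p = 0.00482). Without mutant vehicle library 3, the lowest, the rise with both agents in mutant cells was not called (0.36, adjusted p = 0.0643); without wild-type vehicle libraries 1 and 4 the wild-type rise with both was not called (0.55, adjusted p = 0.0801), nor was it with the structural RNA share as covariate (0.61, adjusted p = 0.0892). Pam3CSK4 alone gave 1.15 ± 0.251 CPM in mutant cells (-0.45 ± 0.18, adjusted p = 0.0631) and 0.583 ± 0.0947 CPM in wild-type cells (-0.02 ± 0.22, adjusted p = 0.974); without mutant vehicle library 3 the mutant value was called lower (-0.62, adjusted p = 0.00533).

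F2rl2 lies within Iqgap2 on the opposite strand, and whether counting used strand is not given in the sources used here. Iqgap2 averaged 92.6 CPM in mutant and 92.9 CPM in wild-type vehicle libraries (edgeR adjusted p = 0.951), and 93.2 CPM with IFNg in mutant cells (0.01 ± 0.05, adjusted p = 0.911). Counted over the whole gene, Iqgap2 passed neither between the lines with vehicle nor with IFNg in mutant cells. In wild-type cells Iqgap2 was higher with IFNg by 0.14 ± 0.05 (adjusted p = 0.0164). With Pam3CSK4 Iqgap2 was lower in mutant cells (-0.15 ± 0.05, adjusted p = 0.0141) and higher in wild-type cells (0.17 ± 0.05, adjusted p = 0.00817). Its part in the line difference and in the treatment values of F2rl2 was not tested. The other thrombin receptors differed the opposite way. F2r, which encodes PAR1, averaged 11.4 ± 0.462 CPM in mutant and 26.8 ± 1.06 CPM in wild-type vehicle libraries (-1.24 ± 0.05), and F2rl3, which encodes PAR4 and was named after its values were seen, averaged 29.8 ± 3.31 CPM in mutant and 39.5 ± 4.39 CPM in wild-type libraries (-0.41 ± 0.08). F2r rose with IFNg in both lines (0.49 ± 0.05 in mutant, 0.35 ± 0.05 in wild-type cells). With Pam3CSK4 it rose in mutant cells by 0.49 ± 0.05 and fell in wild-type cells by 0.29 on the log2 scale, a difference of 0.78 ± 0.07 (edgeR adjusted p = 4.55e-10).

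Plek (ENSMUSG00000020120.15, chr11:16971206-17052381, minus strand) encodes pleckstrin. It was by far the most abundant of the 9 transcripts, with 281.8, 274.9, 270.6 and 264.0 CPM in mutant vehicle libraries, against 235.8, 227.0, 194.6 and 212.0 CPM in wild-type vehicle libraries. Mutant libraries were higher without overlap, by a small log2 fold change of 0.33 ± 0.05 (edgeR adjusted p = 6.03e-07). With IFNg the difference was 0.37 ± 0.05. With Pam3CSK4 it widened to 0.97 ± 0.05 (adjusted p = 2.08e-18), and with both agents to 0.80 ± 0.05.

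The response to Pam3CSK4 was seen in mutant cells. Pam3CSK4 brought Plek to 364.8, 391.2, 392.2 and 431.3 CPM in mutant libraries, all above vehicle (0.53 ± 0.05, edgeR adjusted p = 1.14e-10). Wild-type libraries with Pam3CSK4 read 206.8, 203.4, 200.5 and 197.3 CPM, within the range of vehicle (-0.11 ± 0.05, adjusted p = 0.123). The responses differed by 0.64 ± 0.07 (adjusted p = 2.52e-08). Both agents gave 417.5, 403.8, 410.0 and 433.5 CPM in mutant cells (0.61 ± 0.05, adjusted p = 1.13e-12) and 238.3 ± 8.5 CPM in wild-type cells (0.13 ± 0.05, adjusted p = 0.0272), and the difference of the responses was 0.48 ± 0.07 (adjusted p = 5.62e-06). The wild-type call with both agents ended without wild-type both library 2 (adjusted p = 0.0934) or wild-type vehicle library 3 (0.154) or 4 (0.0717); the mutant calls and both differences held in every alternative run. IFNg alone raised Plek by 0.23 ± 0.05 in mutant cells (adjusted p = 0.000313) and by 0.19 ± 0.05 in wild-type cells (adjusted p = 0.00285), and that response did not pass a test of difference (0.04 ± 0.07, adjusted p = 0.856). Cnrip1 overlaps the annotated start of Plek on the opposite strand. It averaged 5.36 CPM in mutant and 4.29 CPM in wild-type vehicle libraries (0.32 ± 0.07, edgeR adjusted p = 0.000284). This was close to the difference of Plek on the log2 scale only, as Plek averaged 272.8 CPM in mutant and 217.3 CPM in wild-type vehicle libraries. In mutant cells Cnrip1 rose with IFNg (0.28 ± 0.07, edgeR adjusted p = 0.00197) and did not pass with Pam3CSK4 (-0.01 ± 0.07, edgeR adjusted p = 0.929). Its part in the line difference and the IFNg response of Plek was not tested. Plek2, its relative in other cell types, was at most 0.00492 CPM.

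**Figure D4:**
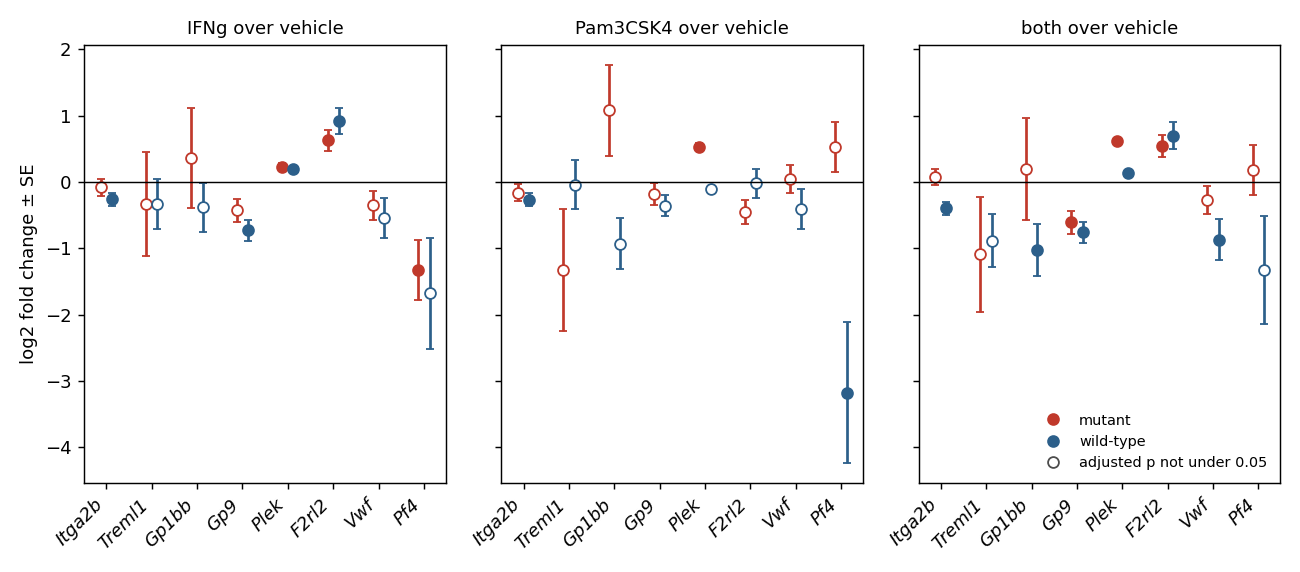
Log2 fold change ± SE of IFNg, Pam3CSK4 and both agents (panels) over vehicle for the 8 tested genes in mutant (red) and wild-type (blue) cells; filled points passed an edgeR adjusted p of 0.05. Plek with Pam3CSK4 is at 0.53 in mutant and -0.11 in wild-type cells, while F2rl2 is above 0 and Gp9 below 0 in both lines with IFNg.

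Counted over the genes, treatment called fewer members than genotype. In mutant cells IFNg called 3 of 8 (F2rl2 and Plek higher, Pf4 lower; 33.2% of all genes tested), Pam3CSK4 called 1 (Plek higher; 24.3%) and both agents called 3 (F2rl2 and Plek higher, Gp9 lower; 43.8%). In wild-type cells IFNg called 4 (F2rl2 and Plek higher, Itga2b and Gp9 lower; 35.4%), Pam3CSK4 called 2 (Itga2b and Pf4 lower; 22.0%) and both agents called 6 (F2rl2 and Plek higher, Itga2b, Vwf, Gp1bb and Gp9 lower; 43.7%). Except for both agents in wild-type cells, these counts lie near the background. The count for both agents in wild-type cells was smaller with the structural RNA share as covariate and without wild-type vehicle libraries 1 and 4. Whether it exceeded the background was not tested. The comparisons within a line share their vehicle libraries. Differences of the response between the lines were called for 0 of 8 genes with IFNg by edgeR, for Plek and Pf4 with Pam3CSK4, and for Plek and Itga2b with both agents, against 1.65, 26.6 and 15.8% of all genes. For IFNg no member had an unadjusted p under 0.05, and DESeq2 called none either.

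Compared per kilobase of transcript, Plek had the highest level in all 8 groups, from 52.3 ± 1.1 CPM per kb in wild-type Pam3CSK4 libraries to 107.7 ± 3.35 CPM per kb in mutant libraries with both agents. In mutant vehicle libraries Gp9 followed at 2.52 ± 0.138 CPM per kb, then Pf4 at 0.87 ± 0.47, F2rl2 at 0.702 ± 0.207, Itga2b at 0.603 ± 0.1, Vwf at 0.311 ± 0.0301, Treml1 at 0.0415 ± 0.0353 and Gp1bb at 0.0282 ± 0.0268 CPM per kb, with Ppbp at 0. Pf4, F2rl2 and Itga2b lay within their SD of each other, as did Treml1 and Gp1bb. In wild-type vehicle libraries Itga2b stood next to Plek at 4.15 ± 0.321 CPM per kb and Gp9 followed at 3.69 ± 0.734, within its SD. Then came Gp1bb at 0.361 ± 0.0501, Treml1 at 0.34 ± 0.0668, F2rl2 at 0.257 ± 0.0431, Pf4 at 0.177 ± 0.079 and Vwf at 0.123 ± 0.0449 CPM per kb, with Ppbp again at 0. The gene after Plek was Gp9 in all 4 mutant groups and Itga2b in all 4 wild-type groups.

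Other genes of platelet function showed no common direction with vehicle. Over all genes tested 24.4% were called higher and 29.3% lower in this comparison. The counts of every list below are to be read against these shares. Of 14 adhesion receptor genes 7 were tested, of which 4 were higher and 1 lower in mutant cells (median log2 fold change 1.07; -0.01 over all genes). The tetraspanin gene Cd9 averaged 119.9 ± 3.04 CPM in mutant and 26.4 ± 0.849 CPM in wild-type libraries (2.18), and Itga6, the alpha chain of a laminin receptor, 139.1 ± 3.28 CPM in mutant and 60.0 ± 1.82 CPM in wild-type libraries (1.21). The single lower gene was Gp1ba. Of 10 receptors for soluble agonists 6 were tested; 5 were lower and none was higher (median -0.53). P2ry1, an ADP receptor, averaged 0.833 ± 0.184 CPM in mutant and 7.67 ± 0.227 CPM in wild-type cells (-3.22 ± 0.12), and the prostacyclin receptor gene Ptgir 43.3 ± 1.75 CPM in mutant and 68.2 ± 3.64 CPM in wild-type cells (-0.65). The ADP receptor gene P2ry12 and the thromboxane receptor gene Tbxa2r reached at most 0.0407 and 0.00746 CPM.

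Granule genes were split as the 9 genes were, with 6 of 12 tested higher and 5 lower (median 0.10). Clu, a secreted chaperone, averaged 48.2 ± 1.62 CPM in mutant and 0.218 ± 0.0469 CPM in wild-type cells (7.80), Pdgfa, a growth factor chain, 3.13 ± 0.3 CPM in mutant and 0.115 ± 0.0541 CPM in wild-type cells (4.78), and F13a1, the coagulation factor XIII subunit also made by monocytes, 313.6 ± 13.2 CPM in mutant and 58.3 ± 4.19 CPM in wild-type cells (2.43). Rab27b, which directs granule secretion, averaged 3.25 ± 0.345 in mutant and 22.8 ± 0.966 CPM in wild-type cells (-2.80), the adhesive glycoprotein gene Thbs1 60.5 ± 2.98 CPM in mutant and 143.3 ± 7.43 CPM in wild-type cells (-1.24), and Tgfb1 21.9 ± 2.11 CPM in mutant and 29.9 ± 7.92 CPM in wild-type cells (-0.45; adjusted p = 0.0892 with only the libraries compared). In the signalling list 9 of 15 tested genes were lower and 3 higher (median -0.21): the adaptor gene Lat averaged 0.733 ± 0.176 and 4.69 ± 0.407 CPM (-2.65), Prkcq 2.12 ± 0.188 and 6.11 ± 0.407 CPM (-1.53) and Fyb 3.11 ± 0.466 and 5.24 ± 0.511 CPM (-0.76) in mutant and wild-type cells, while the kinase gene Syk was at 0.24, Ptgs1 at 0.23 and Plcg2 at 0.15. In the cytoskeletal list 2 of 6 were higher, Tpm4 (0.70) and Actn1 (0.33), and 3 lower (Myh9 at -0.42, Flna at -0.10, Wdr1 at -0.09; median -0.02). The small falls of Flna and Wdr1 were not called with RLE size factors (adjusted p = 0.0666 and 0.061) or with only the libraries compared (0.136 and 0.135), nor was Flna in DESeq2 (0.0583) or without wild-type vehicle library 2 (0.0721), nor Wdr1 without the filter on low counts (0.0933).

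Of 13 transcription factors that regulate megakaryocytes 11 were tested, 2 were higher, 4 lower and 5 not called (median -0.05). Gata1, the factor that drives megakaryocyte and red cell maturation, averaged 1.06 ± 0.123 CPM in mutant and 24.4 ± 0.712 CPM in wild-type vehicle libraries (-4.51 ± 0.10, edgeR adjusted p = 4.99e-29). Its partner gene Zfpm1 was at -1.13, Mafg at -0.31, Meis1 at 0.57 and Runx1 at 0.39. Markers of other lineages moved with these differences. All 11 tested of 12 erythroid genes were lower in mutant cells, where Hba-a2, Alas2, Car1 and Pklr were at 0, with summed levels of 5.66 to 6.44 CPM in mutant and 112.0 to 126.7 CPM in wild-type vehicle libraries. Of 10 genes of mast cells and basophils 7 were tested and all 7 were lower (summed 115.8 to 125.9 CPM in mutant against 697.7 to 740.8 CPM in wild-type libraries; Fcer1a at 0 in both lines, Tpsb2 and Gzmb at 0 in mutant cells), and all 10 B lymphoid genes were higher (summed 363.4 to 380.6 CPM in mutant against 65.0 to 73.4 CPM in wild-type libraries, none at 0). The part of these shifts in the values of the 9 genes was not tested. The lists were written with results of these libraries known and are no independent evidence of direction.

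**Figure D5:**
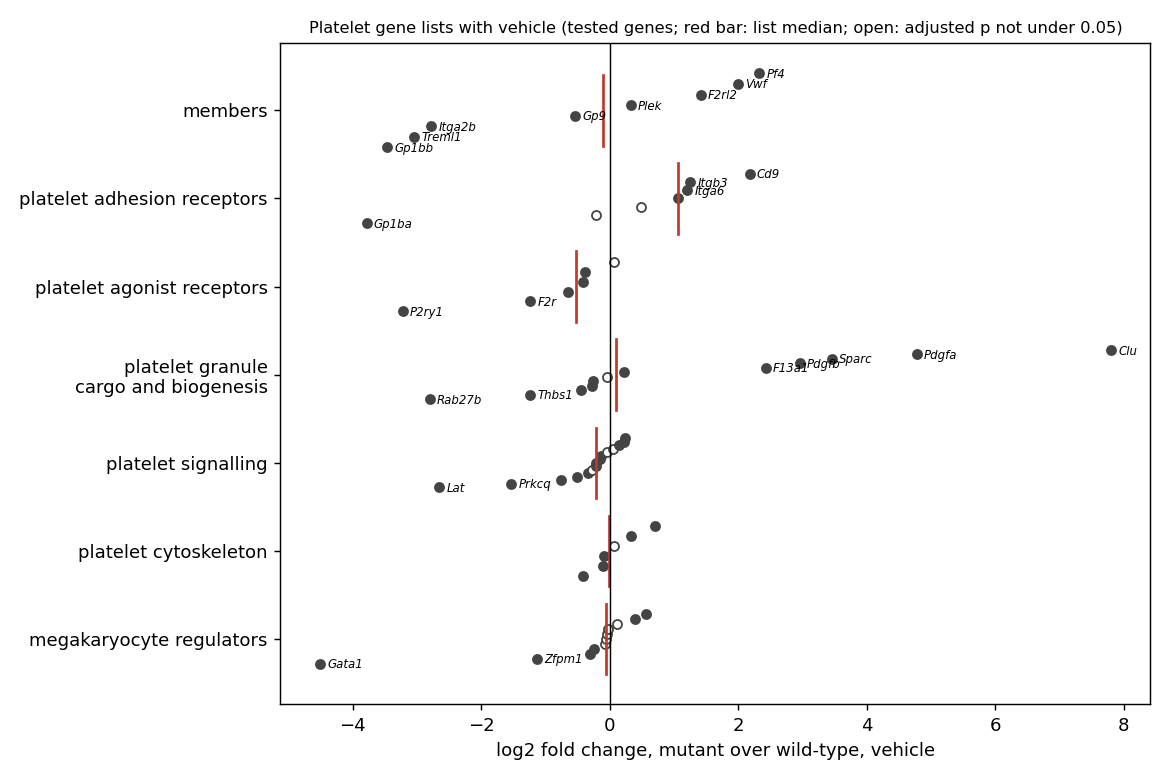
Log2 fold change of mutant over wild-type vehicle libraries for the 8 tested genes and the tested genes of 6 lists of platelet function (points), with the median of each list as a red bar. Medians run from -0.53 for agonist receptors to 1.07 for adhesion receptors, and 5 of the 6 lists, all but the agonist receptors, have called genes on both sides of 0.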

How the data were processed

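Each library had a deposited gene table, of which the expected counts were used. STAR 2.5.2b, mm10 and RSEM 1.3.0 are the tools and build that the submitters' processing notes name; RSEM allots shared reads by a model. The sources used here do not give the annotation, filters or strand setting. Libraries were stranded total RNA with ribosomal RNA reduced, per the labels. The effective transcript length beside the counts, another deposited column, served only for levels per kb.

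Of 55487 identifiers 55394 matched GENCODE vM21 with versions ignored, which gave symbols and mm10 coordinates. Counts were rounded (11.07% of non-zero values were not whole), filtered with filterByExpr (14869 genes kept), scaled by TMM and fitted in edgeR 4.0.16 (R 4.3.3) with 1 mean per group over all 32 libraries, 24 residual degrees of freedom and robust dispersions (common biological coefficient of variation 7.22%). The quasi-likelihood test was run for 13 comparisons, each adjusted by Benjamini-Hochberg over all genes; genes with an adjusted p under 0.05 are called. Recovery of known changes was checked on simulated counts, with changes placed in mutant vehicle libraries only. None was placed at levels as low as those of Gp1bb, Treml1 and Pf4. CPM are given as mean ± SD, fold changes as log2 ± SE, and ratios with 1 to 3 counts with a 95% counting interval, which covers counting error only. The SE was derived from the fold change and the F statistic of the test, and is unreliable where the fold change is near 0.

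Members and lists were chosen with earlier results of these data known. From each list up to 3 called rises and 3 falls of greatest size at 1 CPM or more are named, and in addition all genes that overlap a member, the TREM and CXC chemokine clusters and the genes within 500 kb of Gata2. A gene of the regulator list is not reported here. Gp1ba, Gp5, F2rl3 and P2rx1 were added after their values were seen. Alternatives were RLE size factors, DESeq2 1.42.0, no filter, the replicate number as a block, only the libraries compared, the structural RNA share as covariate, and libraries left out. Plots used Python 3.11.15 with pandas 2.3.3 and matplotlib 3.10.9.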

Additional observations from a re-analysis of the deposited data

Results flagged for a closer look

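A library was marked where it stood apart from the other 3 of its group by Dixon's criterion at the 95% level. Of 66 groups checked 6 were marked, and chance marks about 1 in 20. Itga2b read 2.41 CPM in mutant vehicle library 4, against 1.73 to 1.84 CPM in the others. Gp1bb read 0.488 CPM in wild-type IFNg library 1, against 0.206 to 0.212 CPM. Gp9 read 2.4 CPM in wild-type Pam3CSK4 library 4, against 1.64 to 1.73 CPM. The other 3 marks were groups in which a single library held all counts: Pf4 at 0.0148 CPM in wild-type Pam3CSK4 library 1, Ppbp at 0.0229 CPM in mutant library 4 with both agents, and Treml1 at 0.0664 CPM in mutant Pam3CSK4 library 4.

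The treatment response differed between the lines, mutant minus wild-type on the log2 scale in edgeR's test of the difference, for 4 results on the 9 genes. These were Itga2b with both agents (0.48), Pf4 with Pam3CSK4 (3.71), and Plek with Pam3CSK4 (0.64) and with both agents (0.48).

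Of the other genes checked in this way, F2r, F2rl3, P2rx1, Thbs1, Treml2, Gp1ba and Gp5, it differed for 4. The lists of platelet genes hold more. Of granule genes with Pam3CSK4, for example, 4 of 12 tested had a higher and 3 a lower difference. Of adhesion receptor genes 1 of 7 tested had a higher and 1 a lower difference. Over all genes 26.6% were called for this difference. P2rx1, an ATP-gated channel of platelets, had the widest difference of the 4 genes: with Pam3CSK4 it averaged 71.7 ± 2.56 CPM in mutant cells, against 28.8 ± 1.19 CPM with vehicle, and 30.6 ± 1.15 CPM in wild-type cells, against 27.5 ± 1.2 CPM with vehicle (difference 1.16 with Pam3CSK4 and 1.01 with both agents). F2r differed by 0.78 with Pam3CSK4 and 0.6 with both. Thbs1 differed by -0.76 with IFNg, -0.76 with Pam3CSK4 and -0.96 with both; with Pam3CSK4 it averaged 36.0 ± 1.64 CPM in mutant cells, against 60.5 ± 2.98 CPM with vehicle, and 144.2 ± 3.5 CPM in wild-type cells, against 143.3 ± 7.43 CPM with vehicle. Treml2 differed by -0.43 with Pam3CSK4.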

How the results depend on the processing

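Over all alternatives the 8 tested genes gave 1678 values, of which 1578 kept their direction and side of the threshold, 69 lost a call, 31 gained one and 0 changed sign after a call. For mutant against wild-type the loss or gain of a call was found in 2 and 10 of 451 values, nearly all of them for Gp9. With libraries left out in turn, 8 members stayed called with vehicle, 7 with IFNg, and 7 to 8 with Pam3CSK4 and with both agents.

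Counts of members called against vehicle moved more. In wild-type cells IFNg called 4, and 2 with the structural RNA share as covariate. Pam3CSK4 called 2, and 1 with the replicate block, 0 with the covariate, 0 without wild-type vehicle libraries 1 and 4, and 1 in DESeq2, which gave no adjusted p for Pf4. Both agents called 6, 1 with the covariate and 3 without these libraries. Of the differences between lines, that for Pam3CSK4 called 2, and 1 with the covariate, without these libraries or in DESeq2 (again no adjusted p for Pf4); that for both agents called 2, and 1 with the covariate or with only the libraries compared. Leaving out single libraries gave 3 to 5 for IFNg, 0 to 2 for Pam3CSK4 and 3 to 6 for both agents in wild-type cells, 2 to 3, 1 to 2 and 2 to 3 in mutant cells, and 2 to 3 (Pam3CSK4) and 1 to 2 (both agents) for the differences.

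Over all genes, the covariate gave 2794 calls for wild-type IFNg (5265 without it), 176 for Pam3CSK4 (3277) and 3640 for both (6491), and 1212 (3956) and 1380 (2347) for the Pam3CSK4 and both-agent differences. Wild-type Pam3CSK4 gave 2057 with only the libraries compared, 648 without wild-type vehicle libraries 1 and 4 and 2048 without library 4; its difference gave 2444 without both. The IFNg difference, 245, gave 127 with only the libraries compared, 400 in DESeq2 and 136 to 382 with single libraries left out. With the covariate 3 values of other genes changed sign after a call: Iqgap2 with IFNg (-0.01) and both agents (-0.04) in wild-type cells, and Gp1ba with both agents in wild-type cells (0.06).

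Libraries with the same replicate number did not pair: their deviations correlated at -0.237 to 0.227. With the replicate block Gp9 was called in mutant against wild-type cells with Pam3CSK4 (adjusted p = 0.0466) and both agents (0.0399), and with IFNg in mutant cells (0.0377). Depth limits Gp1bb, Treml1, Pf4 and Ppbp, which had under 100 counts per group.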

Other observations

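Over the 32 libraries, and among 10304 named protein-coding genes that reached 1 CPM in at least one group mean, the genes whose log2 CPM correlated best with each of the 8 tested genes mostly followed the difference between the lines, which these correlations share. For Itga2b they were Il1rl1, the interleukin 33 receptor, the globin gene Hbb-bs and the neutrophil elastase gene Elane, each at r = 0.992. For Vwf they were Tubb2b (0.962), Col26a1 and Mdfi, for Treml1 Phc1 (0.94), Syngr1 and Mns1, and for Pf4 Serf1 (0.919), Minos1 (0.918) and Pgrmc1 (0.914). Gp1bb had Adora3 (0.905), Faah (0.9) and Ell, Gp9 had Lin37 (0.838), Mzb1 and Ankrd54, F2rl2 had Trim30d (0.934), Ccnd2 and Glrp1, and Plek had Gpbp1 (0.959), Gimap6 and Rap1b. The libraries also share their depth and structural RNA share.

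With the mean of each line removed, a measure chosen after the data were seen, other genes came first. Plek was then closest to Zfp91 (0.97), and F2rl2 to Mtfr2 (0.888) and the interferon-induced gene Oas3 (0.886). Between the 8 genes themselves r within lines ran from -0.65 for Gp9 with F2rl2 to 0.39 for Itga2b with Vwf. Several pairs alike over all libraries were not so within lines: Itga2b with Gp1bb had r = 0.86 over all libraries and 0.1 within lines, Itga2b with Treml1 0.9 and -0.04, and Vwf with Pf4 0.83 and 0.16.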
